A study of Mus musculus with 36 samples.

Results

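The transcripts followed here encode the hypoxia-inducible factor (HIF) subunits and the enzymes that read oxygen for them. The 8 genes were chosen by symbol: the alpha subunits Hif1a and Epas1, their partner Arnt, the prolyl hydroxylases Egln1, Egln2 and Egln3, the ubiquitin ligase subunit Vhl and the asparaginyl hydroxylase Hif1an. All 8 stood on 1 row of both deposited tables and passed the filter on low values, among 13215 genes tested and 24346 symbols listed. The animals were wild-type C57BL/6JRj males of 16 weeks, kept for 4 weeks under intermittent hypoxia (IH) or under matched air-to-air cycles (control). The IH chamber ran 60 cycles an hour between 5% and 21% inspired oxygen from zeitgeber time (ZT) 0, when lights went on, to ZT8. Livers were taken at 6 time points, with 3 mice per time point and condition, which gave 36 poly(A) RNA libraries, 18 in each condition. All were of 1 strain and sex, carried no engineered allele and ate chow freely. ZT0, the start of the daily exposure, ZT4 and ZT8 are called inside the hypoxic window here and ZT12, ZT16 and ZT20 outside it, so that each window held 9 libraries per condition. Because IH was given in the light phase alone, inside against outside within a condition also compares the light with the dark part of the day.

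HIF is a heterodimer of an oxygen-labile alpha subunit and the constitutive beta subunit ARNT. With oxygen present, prolyl hydroxylases modify the alpha subunit, VHL recognises the modified protein and directs its ubiquitination, and the asparaginyl hydroxylase FIH blocks its binding to coactivators. When oxygen falls, the alpha subunits accumulate, bind DNA with ARNT and turn on genes of glycolysis, angiogenesis and iron handling, as well as some of the prolyl hydroxylases themselves. Much of this control acts on protein, and the values below are transcript levels in whole liver, in which fewer cells of a type and less RNA per cell cannot be told apart.

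The libraries read as liver in every group. The lowest value of Alb, the gene for serum albumin, was 23400 FPKM, a unit that scales fragment counts by transcript length and library size. The sums of 10 sinusoidal endothelial markers ran from 47.3 to 81.5 FPKM over the 36 libraries. Of 3 erythroid markers, Slc4a1 had a median of 0.00351 FPKM, Hbb-bs of 3.54 FPKM and Alas2 of 50.9 FPKM. Estimated depth ran from 52400000 to 88400000 fragments per library. The control library of replicate 2 at ZT12 stood apart. Its FPKM values summed to 808274, against 561964 to 626371 in the others, and its median correlation with the other libraries was 0.945, against 0.974 or more elsewhere. The part of Kupffer cells in the results was not tested. The sum of 7 of their markers was 66.2 FPKM or less in the control libraries inside the window and 51.1 or less in IH. In the control libraries outside it, which include the library that stood apart, the median sum was 39.35 FPKM and the highest 178 FPKM. In that library Arnt stood at 0.424 of the mean of the other 2 control mice at ZT12, Egln3 at 0.465, Hif1a at 0.514, Hif1an at 0.527, Epas1 at 0.534, Egln1 at 0.605 and Vhl at 0.781, whereas Egln2 stood at 1.09. Calls that change when that library is left out are given both ways.

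Epas1, which encodes the HIF-2alpha subunit, was the most abundant of the 8 transcripts. Its mean over the 36 libraries was 32.6 FPKM, higher than that of 87.7% of the tested genes, and single libraries ran from 19.5 to 46.2. Egln2 followed with a mean of 24.95 FPKM and lay below Epas1 in 34 of 36 libraries. A gap of 3.10-fold separated Egln2 from Arnt, at 8.04 FPKM, and no library reversed that order. Egln1 (6.61 FPKM), Hif1a (6.43 FPKM) and Egln3 (6.07 FPKM) lay close together. Egln1 exceeded Hif1a in 20 of 36 libraries and Hif1a exceeded Egln3 in 24 of 36, so these neighbours in the order did not differ beyond their spread. Vhl (3.78 FPKM) and Hif1an (2.68 FPKM) were lowest, with Vhl above Hif1an in 34 of 36 libraries. FPKM is scaled by transcript length, which allows levels of different genes to be set side by side.

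The ratio of the alpha subunits was similar in every group. Epas1 exceeded Hif1a in 36 of 36 libraries and by 5.07-fold in the means. In control the median ratio was 4.78 inside the window (3.96 to 6.71) and 4.74 outside it (4.48 to 6.02). In IH it was 4.90 inside (4.46 to 6.61) and 4.92 outside (4.51 to 5.94), and these ranges overlapped throughout.

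**Figure D1:**
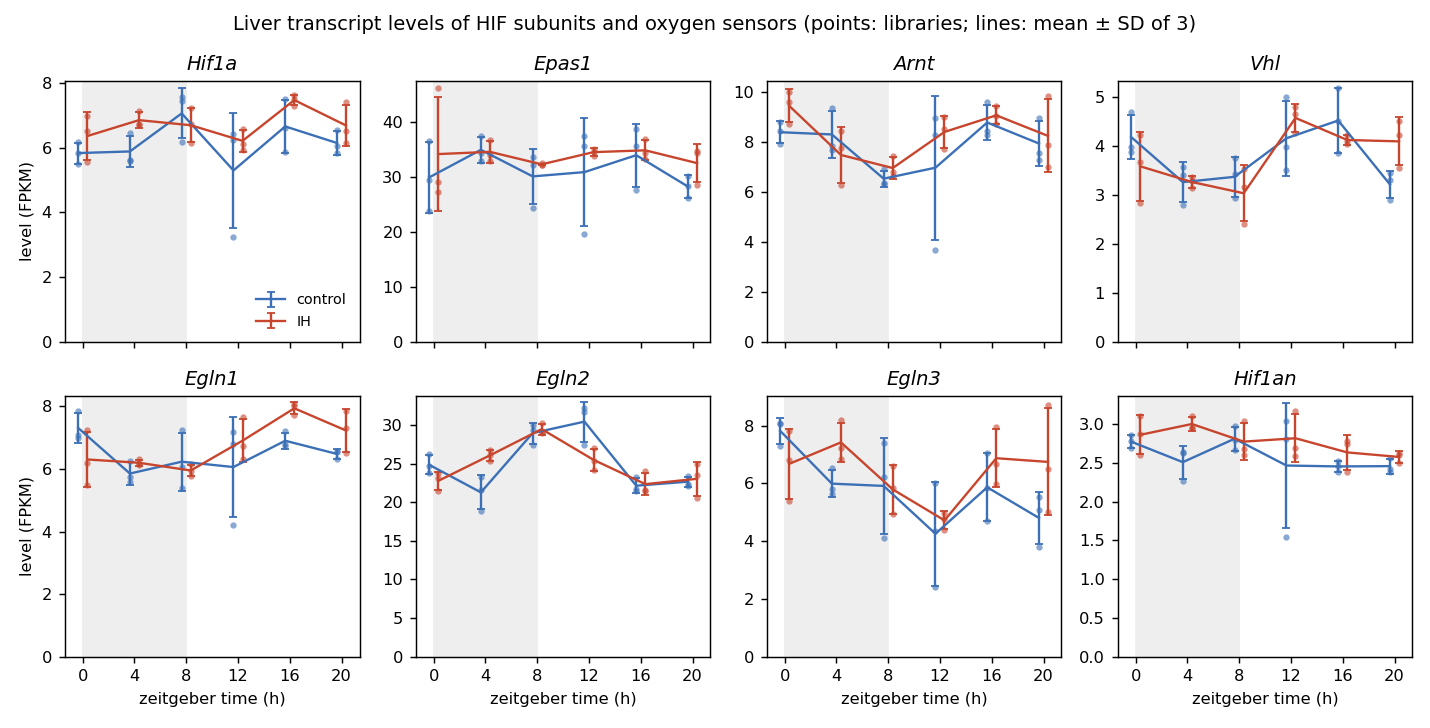
Transcript level (FPKM, linear axis from 0) against zeitgeber time (h) for the 8 genes in control (blue) and IH (red), with points for single libraries, lines and bars for the mean ± SD of 3 mice and grey shading for the hypoxic window. The lowest blue point at ZT12 in 7 panels, such as Arnt at 3.66 FPKM, is the control library that stood apart.

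The main question of the design was whether the hypoxic chamber changed these transcripts. Inside the window none of the 8 genes passed the threshold for IH against control (limma on log2(FPKM + 1), Benjamini-Hochberg adjusted p of 0.05 or less over all tested genes). The differences ran from -0.10 for Vhl to 0.09 for Epas1 on the log2 scale, with adjusted p from 0.617 to 0.973, and 0 of 8 had an unadjusted p under 0.05. Of all tested genes 0.265% were called in this comparison and 12.2% had an unadjusted p under 0.05. The median difference of the 8 genes was 0.05, beside 0.02 over all genes.

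Among the subunits, Hif1a, which encodes the HIF-1alpha protein, had a lowest, median and highest value of 5.51, 6.16 and 7.56 FPKM in the 9 control libraries inside the window. The 9 IH libraries had 5.55, 6.72 and 7.21 FPKM. The groups overlapped, with a log2 difference of 0.08 and a 95% interval from -0.08 to 0.23. Epas1 had 23.8, 33.0 and 37.5 FPKM in control and 27.3, 32.5 and 46.2 FPKM in IH, a log2 difference of 0.09 with an interval from -0.13 to 0.31. Arnt, the gene of the shared beta subunit, had 6.33, 7.84 and 9.38 FPKM in control and 6.26, 7.76 and 10.0 FPKM in IH (log2 difference 0.03, interval -0.17 to 0.23). The upper ends of these 3 intervals were 0.31 or less on the log2 scale.

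The sensors behaved likewise inside the window. Egln1, the gene of PHD2, had a lowest, median and highest value of 5.40, 6.25 and 7.86 FPKM in control and 5.50, 6.14 and 7.23 FPKM in IH. Egln2, the gene of PHD1, had 18.9, 24.6 and 30.0 FPKM in control and 21.4, 26.1 and 30.3 FPKM in IH. Egln3, the gene of PHD3 and itself an established HIF target, had 4.12, 6.52 and 8.09 FPKM in control and 4.93, 6.82 and 8.18 FPKM in IH. Their log2 differences were -0.06 (interval -0.19 to 0.08), 0.06 (-0.03 to 0.15) and 0.02 (-0.22 to 0.26), and the groups overlapped for each. Vhl had 2.79, 3.57 and 4.69 FPKM in control and 2.41, 3.29 and 4.23 FPKM in IH, a log2 difference of -0.10 with an interval from -0.24 to 0.04. Hif1an, the gene of FIH, had 2.26, 2.69 and 2.98 FPKM in control and 2.60, 2.95 and 3.11 FPKM in IH (log2 difference 0.07, interval -0.06 to 0.19).

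Outside the window, when IH mice breathed room air, 7 of the 8 differences were above 0, and again 0 of 8 passed the threshold (background 0.0832%). The smallest adjusted p was 0.418, for Egln1. An unadjusted p under 0.05 was reached by 3 of 8 genes, beside 10.1% of all tested genes. Egln3 differed by 0.26 on the log2 scale (SE 0.12, adjusted p = 0.445), Egln1 by 0.17 (SE 0.07, adjusted p = 0.418) and Hif1a by 0.16 (SE 0.08, adjusted p = 0.468). With all libraries kept, the median difference of the 8 genes was 0.14, beside 0.03 over all genes. Without the control library that stood apart, the differences named above were 0.17 for Egln3, 0.10 for Egln1 and 0.08 for Hif1a, with adjusted p from 0.597 to 0.702. The others were then 0.07 for Vhl, 0.05 for Epas1, 0.03 for Hif1an, 0.02 for Arnt and -0.06 for Egln2.

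Over all time points 0 of 8 genes were called, against 0.651% of all tested genes. Hif1a came nearest, at 6.14 FPKM in control against 6.71 FPKM in IH, a log2 difference of 0.12 (SE 0.05, unadjusted p = 0.0347, adjusted p = 0.383), which became 0.08 without the control library that stood apart. The log2 difference of Vhl was -0.00 with an interval from -0.10 to 0.10, and that of Egln2 -0.00 with an interval from -0.07 to 0.06.

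**Figure D2:**
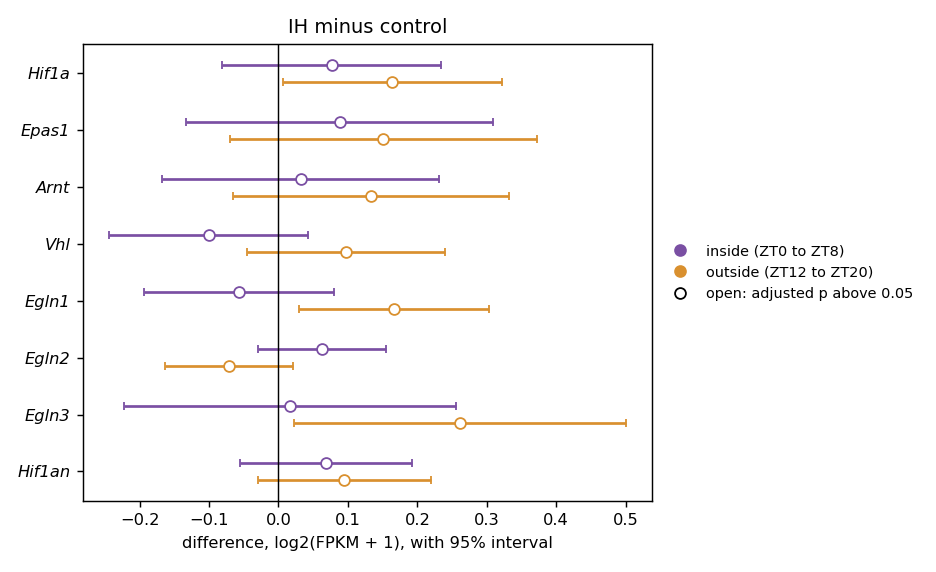
Difference between IH and control on the log2(FPKM + 1) scale (horizontal axis) for each gene, inside (purple) and outside (orange) the hypoxic window, with 95% intervals and open symbols where the adjusted p was above 0.05. All 16 symbols are open, and the widest interval outside the window, that of Egln3, runs from 0.02 to 0.50.

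The difference between the windows was then tested directly, as the IH effect inside minus the IH effect outside. None of the 8 genes was called (background 0.0227%), and 2 had an unadjusted p under 0.05, beside 10.1% of all tested genes. For Egln1 the effect inside was 0.22 lower than outside on the log2 scale, with an estimate of -0.22 (SE 0.09, unadjusted p = 0.0256, adjusted p = 0.429). For Egln2 it was 0.13 higher (SE 0.06, unadjusted p = 0.0445, adjusted p = 0.486). Vhl had an estimate of -0.20 (SE 0.10, adjusted p = 0.505). No gene of the 8 was shown to respond differently in the 2 windows.

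At single time points, 0 of the 48 pairs of a gene and a time point passed the threshold, against 0.324% of all such pairs over the tested genes. An unadjusted p under 0.05 was found in 3 of the 48, at ZT4, ZT12 and ZT20. Of all tested genes 16.4%, 24.6% and 4.74% had one at those times. At ZT0, ZT8 and ZT16 the shares were 7.57%, 4.74% and 3.3%. Egln2 gave the smallest p. At ZT4 its 3 control livers had 21.6, 23.3 and 18.9 FPKM and its 3 IH livers 25.4, 26.8 and 26.1 FPKM. All IH values lay above all control values there, with a log2 difference of 0.29 (SE 0.08, adjusted p = 0.0604). At ZT12 the order was the opposite, with 31.7, 32.1 and 27.4 FPKM in control and 27.0, 24.1 and 25.4 FPKM in IH. That log2 difference was -0.24 (SE 0.08, adjusted p = 0.0814). At the other time points the Egln2 values of the conditions overlapped.

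Egln2 passed the threshold at ZT4 under 4 of 41 alternatives. With array weights, which keep all libraries, the difference was 0.29 (adjusted p = 0.000716). Its adjusted p was 0.0233 without replicate 2 of control ZT12, 0.048 without replicate 2 of control ZT4 and 0.0489 without replicate 3 of control ZT12. At ZT12 it passed without replicate 3 of control ZT12 (-0.32, adjusted p = 0.00916). The ZT12 difference was -0.205 (adjusted p = 0.289) without replicate 2 of control ZT12, the library that stood apart. With array weights it was -0.16 (adjusted p = 0.457). With median ratio scaling the ZT4 difference was 0.18 (adjusted p = 0.368) and the ZT12 difference -0.32 (adjusted p = 0.0624), so the direction was kept at both times. Calls also appeared for Hif1an at ZT4 with array weights (0.17, adjusted p = 0.0303), for Arnt at ZT12 without replicate 1 of control ZT12 (0.51, adjusted p = 0.0428) and for Hif1a at ZT12 without replicate 3 of control ZT12 (0.38, adjusted p = 0.0465). Both ZT12 fits kept the control library that stood apart. With that library left out, the ZT12 difference was -0.035 for Arnt (adjusted p = 0.922) and -0.023 for Hif1a (adjusted p = 0.941). Vhl at ZT20 was the other pair with an unadjusted p under 0.05, at 3.44, 3.30 and 2.90 FPKM in control and 4.23, 4.50 and 3.55 FPKM in IH (log2 difference 0.27, SE 0.12, adjusted p = 1). In all, the 3 IH and 3 control values did not overlap in 7 of the 48 pairs, beside 17.7% of all pairs over the tested genes in either direction. IH lay above in 6 of them: Hif1a, Egln2, Egln3 and Hif1an at ZT4, Egln1 at ZT16 and Vhl at ZT20. At ZT4 the tested genes also leaned that way, with 1689 higher in IH and 483 lower at an unadjusted p under 0.05.

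Across the day within a condition, more of the genes were called, as was so over all tested genes. In IH, 3 of the 8 differed between the hypoxic window and the rest of the day, against 25.8% of all tested genes. Vhl and Egln1 were lower inside the window and Egln2 was higher. In control, 1 of the 8 differed, Egln3, which was higher inside the window, against 20.5% of all tested genes. With the control library that stood apart left out, the count stayed 3 in IH, beside 36.1% of all tested genes. In control it became 0, beside 21%. The difference of these changes between the conditions is the test given above, which called none. The counts are of 8 genes and are read against those shares only.

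Sequence upstream of these 4 genes is shown because they are the ones whose level differed across the day, and because HIF binds a core of ACGTG or GCGTG. The stretches come from RefSeq promoter windows on GRCm38.p6, begin 250 bases before the RefSeq start site and end before the first transcribed base of either RefSeq or GENCODE. They read 5' to 3' along the gene, with each ACGTG or GCGTG, on either strand, in capitals.

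Egln1, chr8:124949325-124949504 (-): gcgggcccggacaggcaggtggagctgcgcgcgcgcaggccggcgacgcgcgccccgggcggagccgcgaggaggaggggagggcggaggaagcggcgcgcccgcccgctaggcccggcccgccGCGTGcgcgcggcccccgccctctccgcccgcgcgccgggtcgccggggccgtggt

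Egln2, chr7:27166803-27167052 (-): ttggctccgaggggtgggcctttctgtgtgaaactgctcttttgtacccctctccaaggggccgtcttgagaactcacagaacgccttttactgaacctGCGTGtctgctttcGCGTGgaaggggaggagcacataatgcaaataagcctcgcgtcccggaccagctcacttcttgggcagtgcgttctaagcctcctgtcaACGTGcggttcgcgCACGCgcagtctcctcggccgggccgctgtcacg

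Vhl, chr6:113623744-113623958 (+): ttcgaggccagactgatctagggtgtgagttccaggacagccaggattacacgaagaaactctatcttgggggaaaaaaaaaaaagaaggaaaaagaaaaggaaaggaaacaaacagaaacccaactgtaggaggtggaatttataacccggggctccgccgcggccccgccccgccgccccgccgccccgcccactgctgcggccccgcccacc

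Egln3, chr12:54203875-54204124 (-): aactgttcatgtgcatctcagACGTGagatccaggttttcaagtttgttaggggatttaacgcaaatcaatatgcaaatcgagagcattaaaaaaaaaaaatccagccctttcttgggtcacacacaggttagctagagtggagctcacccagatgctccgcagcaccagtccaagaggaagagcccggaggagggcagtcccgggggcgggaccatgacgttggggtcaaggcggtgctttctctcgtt

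Within 250 bases before the start site, ACGTG on either strand occurred in 16.6% of all 32851 promoter windows, GCGTG in 28.2% and either in 38.6%. Egln1 held a GCGTG at position -126 and an ACGTG at -68, the latter beyond the stretch shown. Egln2 held 1 ACGTG at -48 and 3 GCGTG, at -151, -137 and, on the opposite strand, -34. A second RefSeq start of Egln2 had 1 GCGTG at -116. Egln3 held an ACGTG at -229, and neither Vhl nor Hif1an held a match. Hif1a held 3 ACGTG matches, 2 of which overlap on opposite strands in the palindrome CACGTG, which 6.02% of the windows held. Its RefSeq start, at 73907867, lies downstream of its GENCODE start at 73901375, so these matches fall inside the GENCODE gene. Arnt held a GCGTG at -29. Of the genes lower inside the window in IH, Egln1 thus held matches and Vhl held none, and a match describes the letters and is not a binding site.

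Vhl, whose product recognises hydroxylated HIF alpha subunits, is annotated on chromosome 6 of mm10 from 113623959 to 113631633 on the plus strand. Inside the window the lowest, median and highest value in IH was 2.41, 3.29 and 4.23 FPKM, and outside it 3.55, 4.23 and 4.80 FPKM. The inside values sat lower with some overlap, and the log2 difference was -0.30 (SE 0.07, adjusted p = 0.00209). In control the corresponding values were 2.79, 3.57 and 4.69 FPKM inside and 2.90, 3.86 and 5.19 FPKM outside, with a log2 difference of -0.10 (SE 0.07, adjusted p = 0.316). With quantile normalization the control difference was -0.18 and was called (adjusted p = 0.0486). The lowest mean in IH was 3.03 ± 0.57 FPKM (SD, n = 3) at ZT8 and the highest 4.57 ± 0.28 FPKM at ZT12, 1.51 times as high.

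Egln1 lies on chromosome 8 from 124908587 to 124949324 on the minus strand. In IH its values inside the window were 5.50, 6.14 and 7.23 FPKM (lowest, median, highest) and outside it 6.33, 7.66 and 8.08 FPKM. All 3 livers at ZT16, at 8.01, 7.72 and 8.08 FPKM, exceeded every IH liver inside the window. The log2 difference was -0.22 (SE 0.07, adjusted p = 0.014). In control the means were 6.47 ± 0.86 FPKM inside and 6.48 ± 0.89 FPKM outside (SD, n = 9), a log2 difference of -0.00 with an interval from -0.14 to 0.14. The calls on Vhl and Egln1 in IH held in all 48 alternatives that gave a value, leaving out each library in turn included.

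Egln2 lies on chromosome 7 from 27158658 to 27166802 on the minus strand. In IH it had 21.4, 26.1 and 30.3 FPKM inside the window and 20.6, 24.0 and 27.0 FPKM outside it. All 3 livers at ZT8, at 29.0, 29.1 and 30.3 FPKM, exceeded every IH liver outside the window. The log2 difference was 0.13 (SE 0.05, adjusted p = 0.0277). In control it was 0.00 (interval -0.09 to 0.09), where ZT4, with a mean of 21.3 ± 2.2 FPKM (SD, n = 3), and ZT12, with 30.4 ± 2.6 FPKM, held the lowest and highest means. With ZT12 left out in both conditions the control difference was 0.14 and was called (adjusted p = 0.0302). The call in IH was lost with median ratio scaling (0.08, adjusted p = 0.31). It was also lost without replicate 3 of IH ZT0, replicate 2 of ZT4, replicate 2 of ZT12, replicates 2 or 3 of ZT16 and replicate 3 of ZT20, with adjusted p between 0.0533 and 0.0746.

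Egln3 lies on chromosome 12 from 54178981 to 54203860 on the minus strand. In control it had 4.12, 6.52 and 8.09 FPKM inside the window and 2.41, 5.07 and 7.05 FPKM outside it. The groups overlapped widely and the highest values were the 3 livers at ZT0, at 8.09, 7.30 and 8.07 FPKM. The log2 difference was 0.36 (SE 0.12, adjusted p = 0.0295). With ZT0 counted outside the window it was 0.09 (adjusted p = 0.665), with ZT0 left out 0.24 (adjusted p = 0.225) and with ZT12 left out 0.26 (adjusted p = 0.117). With the control libraries fitted alone the adjusted p was 0.0932. Without the control library that stood apart it was 0.27 (adjusted p = 0.0681). The call was also lost without replicate 1 of control ZT0, replicate 3 of ZT4, replicates 2 or 3 of ZT8, replicate 3 of ZT16 and replicate 1 of ZT20, with adjusted p from 0.05 to 0.0711. In IH the difference was 0.12 (SE 0.12, adjusted p = 0.511).

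The other 4 genes gave no call between the windows with all libraries and time points. On mm10 these are Hif1a (chromosome 12, 73901375 to 73947530, plus strand), Epas1 (chromosome 17, 86753700 to 86833410, plus), Arnt (chromosome 3, 95434388 to 95497240, plus) and Hif1an (chromosome 19, 44562850 to 44576274, plus). In control their log2 differences, inside minus outside, were 0.06 for Hif1a, 0.04 for Epas1, -0.00 for Arnt and 0.10 for Hif1an, with adjusted p from 0.23 to 0.995. In IH they were -0.03, -0.02, -0.10 and 0.08, with adjusted p from 0.374 to 0.905. With ZT12 left out, Hif1an was called in IH (0.10, adjusted p = 0.0439).

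**Figure D3:**
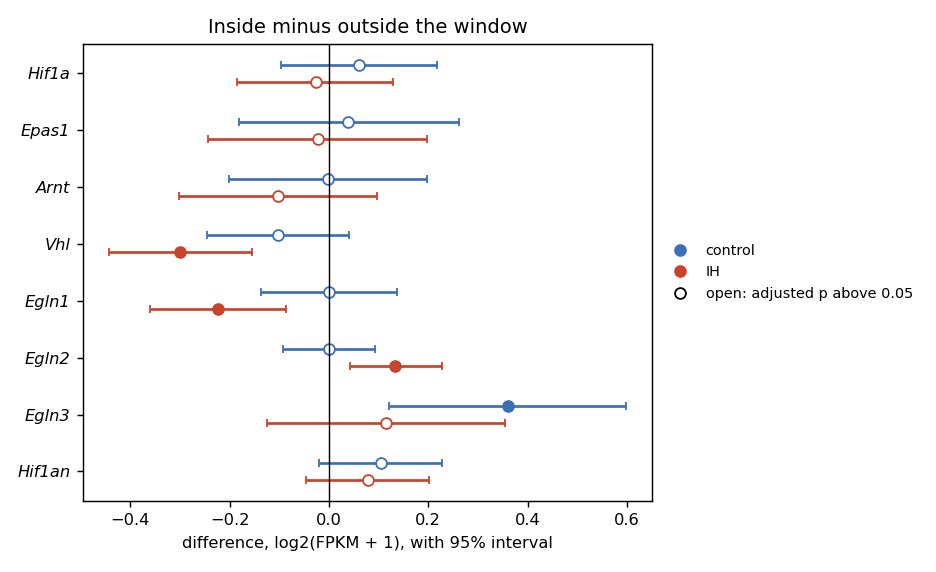
Difference between the libraries inside and outside the hypoxic window on the log2(FPKM + 1) scale (horizontal axis) for each gene in control (blue) and IH (red), with 95% intervals, filled symbols where the adjusted p was 0.05 or less and open symbols elsewhere. The filled symbols are Vhl at -0.30, Egln1 at -0.22 and Egln2 at 0.13 in IH and Egln3 at 0.36 in control.

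A cosine of 24 h was fitted to each condition to describe the timing of these changes. At a nominal P of 0.01 or less, 3 of the 8 genes were rhythmic in IH, against 39.9% of all tested genes, and 0 of 8 in control, against 20.0%. At an unadjusted p under 0.05 the counts were 4 and 1. The shares of all tested genes at that looser cut were not computed and cannot be below 39.9% and 20.0%, so these counts are not read further. In IH, Egln2 peaked at 7.64 h after lights on (unadjusted P = 0.000134), with a fitted peak 1.28 times its trough in FPKM + 1. Egln1 peaked at 16.8 h (unadjusted P = 0.000689, peak 1.26 times the trough) and Vhl at 16.3 h (unadjusted P = 0.00621, 1.31 times), again in FPKM + 1. Ratios on that scale understate the change in FPKM, more so for low genes such as Vhl. The fitted peaks of Egln1 and Vhl thus lay in the dark phase and that of Egln2 near the end of the hypoxic window.

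In control the same genes had fitted peaks at 10.2 h for Egln2 (unadjusted P = 0.0222), 20.6 h for Egln1 (unadjusted P = 0.271) and 15.7 h for Vhl (unadjusted P = 0.252). The fitted amplitude of Egln2 was the same in the 2 conditions, at 0.18 on the log2 scale. The difference in rhythm between the conditions was tested for each gene and called in 0 of 8, with adjusted p from 0.92 to 0.988. Of all tested genes 0% were called and 4.91% had an unadjusted p under 0.05, which none of the 8 reached. A rhythm called in IH and not in control is therefore not shown to differ between them. The Vhl call was lost when the spread was shared by both conditions (unadjusted P = 0.0102) and without replicate 1 of IH ZT4 (unadjusted P = 0.0129), replicate 2 of ZT8 (unadjusted P = 0.0109), replicate 1 of ZT20 (unadjusted P = 0.0103) or replicate 2 of ZT20 (unadjusted P = 0.011). Egln2 became rhythmic in control with an F test over the 6 time points (unadjusted P = 0.000154), with the shared spread (unadjusted P = 0.00242), with median ratio scaling (unadjusted P = 0.00794), without replicate 3 of control ZT4 (unadjusted P = 0.00781) and without replicate 1 of control ZT0 (unadjusted P = 0.00999). With all libraries kept, Hif1a (unadjusted P = 0.997 in control and 0.709 in IH) and Epas1 (unadjusted P = 0.91 and 0.937) had the largest P in the 2 conditions, which says that no cosine was found and not that the profile was flat. With the control library that stood apart left out, the unadjusted P in control became 0.0935 for Hif1a and 0.396 for Epas1. The highest over the lowest time-point mean was 1.33 in control and 1.20 in IH for Hif1a, 1.24 and 1.08 for Epas1 and 1.15 and 1.16 for Hif1an. The lowest control mean of Hif1a, 5.29 FPKM at ZT12, includes the library that stood apart, at 3.25 FPKM. The other 2 control mice at ZT12 averaged 6.32 FPKM. Arnt became rhythmic in IH without replicate 3 of IH ZT20 (unadjusted P = 0.00439).

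The rest of the pathway was read from lists of coactivators, partners, regulators and targets of HIF, of which 66 genes could be tested. For IH against control, 0 of these 66 were called inside the window, outside it, over all time points or in the difference between the windows. An unadjusted p under 0.05 was reached by 11, 10, 12 and 9 of them, beside 12.2%, 10.1%, 11.7% and 10.1% of all tested genes. Without the control library that stood apart, 2 of the 66 were called inside the window, Bnip3 and Pdk1, and 3 over all time points, these 2 and Gnb2l1, the gene of RACK1. All were higher in IH, and the share of all genes called rose with them, to 3.08% inside and 1.54% over all time points. With median ratio scaling, which kept all libraries, 0 of the 66 were called in either, beside 0.242% and 0.409% of all genes. In the list of hypoxia-induced HIF target genes, 27 of the 31 in the tables were tested, and their median difference was 0.05 inside and 0.06 outside, beside 0.02 and 0.03 over all genes. Bnip3, a mitophagy receptor gene, had the smallest p inside the window. Its IH livers averaged 106 ± 43.6 FPKM and its control livers 77.1 ± 29.6 FPKM (SD, n = 9), a log2 difference of 0.41 (SE 0.12, adjusted p = 0.104, and 0.0053 without that library). Pdk1, whose product holds back pyruvate dehydrogenase, was at 16.6 ± 5.4 FPKM in IH and 11.6 ± 2.8 FPKM in control inside the window, a difference of 0.44 (SE 0.14, adjusted p = 0.148, and 0.0172 without that library). Over all time points Pdk1 reached 0.38 (SE 0.10, adjusted p = 0.071), and 0.30 (adjusted p = 0.024) without it. Bnip3 reached 0.28 (SE 0.08, adjusted p = 0.115), and 0.22 (adjusted p = 0.0322) without it, and Gnb2l1 stood at 0.12 (adjusted p = 0.0469) without it. Vegfa, the angiogenic growth factor gene, differed by 0.20 over all time points (SE 0.10, adjusted p = 0.4), and Ldha, the lactate dehydrogenase gene, by -0.20 (SE 0.08, adjusted p = 0.299). These genes, like those named from the lists below, were picked after their values were seen.

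**Figure D4:**
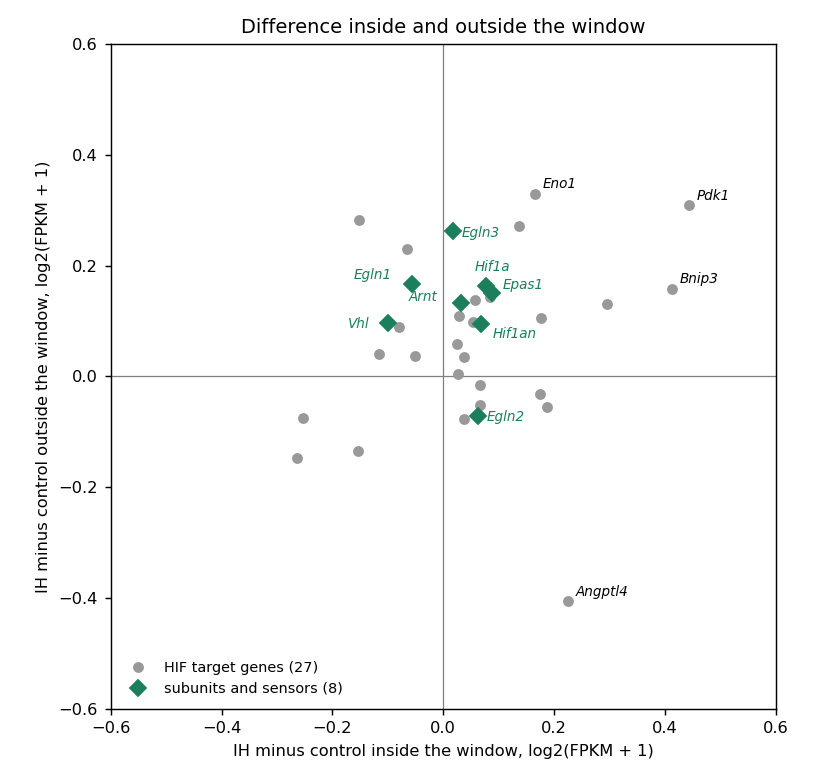
IH minus control on the log2(FPKM + 1) scale inside (horizontal axis) and outside (vertical axis) the hypoxic window for the 27 tested HIF target genes (grey) and the 8 subunit and sensor genes (green). The 8 green symbols lie between -0.10 and 0.09 on the horizontal axis, while Pdk1 and Bnip3 are farthest right at 0.44 and 0.41, and no plotted gene passed the threshold with all libraries kept.

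As over all tested genes, more of the target genes were called between the windows than for IH against control. In IH 2 of 27 were higher and 6 lower inside the window, and in control 2 were higher and 5 lower. Over all tested genes 17.8% were higher and 8.10% lower in IH, and 15.4% higher and 5.15% lower in control. With median ratio scaling the counts over all genes became 1913 higher and 1801 lower in IH, from 2346 and 1070, and 1360 higher and 1223 lower in control, from 2032 and 680. Under that scaling the targets gave 2 higher and 8 lower in IH and 1 higher and 8 lower in control. Without the library that stood apart they gave 4 higher and 9 lower in IH and 2 higher and 9 lower in control, beside 24.6% higher and 11.5% lower of all genes in IH and 14% and 6.98% in control. Tfrc, which encodes the transferrin receptor, fell by 1.02 on the log2 scale inside the window in IH (adjusted p = 1.01e-07) and by 0.59 in control (adjusted p = 0.000299). P4ha1, a collagen prolyl hydroxylase gene, fell by 0.86 and 0.57, and Pgk1, a glycolytic enzyme gene, by 0.26 and 0.22. Ndrg1 rose by 0.94 in IH and by 1.02 in control. At a nominal P of 0.01, 19 of the 27 targets were rhythmic in IH, beside 39.9% of all tested genes, and 9 in control, beside 20.0%. Without the library that stood apart 14 were rhythmic in control, beside 27.1%.

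Of all tested genes 17.8% were higher and 8.10% lower inside the window in IH, and 15.4% and 5.15% in control. Among regulators of HIF and PHD stability, 4 of 16 genes were higher and 4 lower in IH, and 3 were higher and 4 lower in control. The control counts became 1 higher and 5 lower without the library that stood apart, beside 14% and 6.98% of all genes. They were the same with median ratio scaling, beside 10.3% and 9.25%. The called regulators included the chaperone genes Hsp90aa1 and Hsp90ab1, whose products bind HIF alpha subunits. Hsp90aa1 fell by 1.49 inside the window in IH and by 0.69 in control, and Hsp90ab1 by 0.60 and 0.30. The difference between conditions for Hsp90aa1 was -0.80 (SE 0.24, adjusted p = 0.28). For the VHL ubiquitin ligase and its partners, 9 listed genes were tested. Of these, 0 were called in IH and 1 in control, beside 25.8% and 20.5% of all tested genes. The gene called in control was Tceb2, the gene of elongin B, which fell by 0.27. With median ratio scaling Tceb2, Rbx1 and Vbp1 were lower in control and Cul2 in IH, and without the library that stood apart Ube2d3 was higher in IH, by 0.09. Of 9 coactivators and antagonists, Ncoa2 was higher inside the window in IH, by 0.21, and Ncoa2 and Cited2, an inhibitor of the binding of HIF to its coactivators, were higher in control, by 0.23 and 0.36. Without the library that stood apart 3 of these 9 were higher in IH, beside 24.6% of all tested genes. Of 5 tested oxygen-sensing relatives, the histone demethylase gene Kdm5a was higher inside the window in IH, by 0.24, and in control, by 0.15. The cysteamine dioxygenase gene Ado and Jmjd6 were lower in IH, by 0.20 and 0.22.

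The genes whose pattern over the 36 libraries was most like that of each of the 8 were sought among 9812 other genes whose mean reached 1 FPKM, by Pearson's r of log2(FPKM + 1). For Egln2 these were 0610005C13Rik (r = 0.91) and Gnl1 (r = 0.91). For Hif1an they were Mau2 (0.88) and Rtf1 (0.87), for Egln1 Nfic (0.87) and Nsd1 (0.86), and for Hif1a Slc35a3 (0.85) and Secisbp2l (0.84). For Arnt they were Capn15 (0.84) and Clcn3 (0.83), and for Vhl Pde12 (0.84) and BC037034 (0.84). For Egln3 they were Mmp14 (0.81) and Cyp2c29 (0.81), and for Epas1 Atf6 (0.73) and Tmed2 (0.69). The points share libraries, scaling and time of day, and the library that stood apart carried part of the likeness. Without it the first-ranked gene was again Mau2 for Hif1an (0.76), Pde12 for Vhl (0.85) and Atf6 for Epas1 (0.62), and another gene for the other 5. Among the 8 genes themselves, Egln1 and Vhl had an r of 0.56 over 36 libraries and 0.63 without that library, and Egln2 and Hif1an 0.13 and 0.57.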

How the data were processed

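Livers of 36 mice were profiled by stranded poly(A) RNA sequencing. Reads were placed on mm10 by the authors using TopHat2 2.1.1, and they computed FPKM values with Cufflinks 2.2.1. They deposited these FPKM values, 1 column per mouse, as 1 table for IH and 1 for control. Both tables carry the same column names, so the condition was taken from the name of the table, and the strand setting of the counting is not given in the sources used here. Every value column was matched to a sample.

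Symbols on more than 1 row (280 of 24346) were left out. Genes averaging 0.1 FPKM or more across all mice (13215) were tested on log2(FPKM + 1), a scale on which the changes of low genes are understated. limma 3.58.1 in R 4.3.3, with trend and empirical Bayes, was fitted to the 12 groups of condition and time point, and contrasts were adjusted by the Benjamini-Hochberg method over all tested genes with a threshold of 0.05. Intervals are 95% intervals of limma's moderated t distribution. Rhythms were a 24 h cosine within a condition with limma's moderated F test at a nominal P of 0.01. The fits were tested on simulated data. Named genes are the 8 members, list genes called for an IH effect (none were), and the 2 genes most like each member. Other list genes named in the text fall outside this rule and were chosen after their values were seen. The members and lists were chosen with earlier results of these data known. Replicates are separate mice, but mice were housed 5 per cage and cages are not labelled.

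Depth is not stated. Steps in the values of low genes gave an estimate of 52400000 to 88400000 fragments per library (52400000 to 75200000 in control, 52700000 to 88400000 in IH), with 79.8% of those values within 5% of a whole multiple of the smallest. With the merged GENCODE exon length the lowest estimate was about 464 fragments for Egln3 and 491 for Vhl, an estimated counting error of up to 4.64%. The lengths used by Cufflinks are not given, so these figures are rough and are not bounds. Gene positions are from GENCODE vM21 on GRCm38, the assembly of mm10. Exons of Hif1a overlap Gm15283 on the opposite strand over 330 bases and Gm49321 on the same strand over 148 bases, and those of Egln2 overlap Cyp2t4 over 11 bases. RefSeq promoter windows matched 7 of the 8 symbols and not Epas1. Alternatives covered the pseudocount, filter, scaling, windows, spread, threshold and each library left out.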

Additional observations from a re-analysis of the deposited data

Results flagged for a closer look

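Egln2 moved in opposite directions at 2 time points. At ZT4 all 3 IH livers lay above all 3 control livers, with a log2 difference of 0.29, and at ZT12 all 3 IH livers lay below all 3 control livers, with a log2 difference of -0.24. Neither difference passed the threshold after adjustment with all libraries and equal weights. At ZT4 the adjusted p was 0.000716 with array weights and 0.368 with median ratio scaling. At ZT12 it was 0.00916 without replicate 3 of control ZT12 and 0.457 with array weights. It was 0.289 there without replicate 2 of control ZT12, the library that stood apart. The range over 41 alternatives was 0.18 to 0.35 at ZT4 and -0.32 to -0.16 at ZT12, and the difference between the time points was not tested. The pair was found by going through 8 genes at 6 time points.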

How the results depend on the processing

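None of the 8 genes was called for IH against control inside the window, outside it, over all time points or in the difference between the windows under any of the alternatives that gave a value (48 inside and outside, 47 for the others), while the count over all genes moved from 35 to between 15 and 554 inside and from 11 to between 1 and 356 outside. In the difference between the windows it moved from 3 to between 0 and 389, and over all time points from 86 to between 45 and 732. Between windows in control, 1 of the 8 was called, Egln3, which became 2 with quantile normalization (Vhl as well) and 0 with ZT0 counted outside, with ZT0 left out or with the control libraries fitted alone, and 0 to 1 with each library left out. With ZT12 left out the count stayed 1, with Egln2 called in place of Egln3. Between windows in IH the count of 3 ranged from 2 to 4, and rhythm calls in IH from 2 to 4 around 3. Calls on pairs of a gene and a time point went from 0 to 2 with array weights or a nominal P of 0.01, and to between 0 and 3 with each library left out. Rhythm calls in control went from 0 to 1 with median ratio scaling, an F test over the time points or a shared spread, and to between 0 and 1 with each library left out. Same-numbered IH and control mice had a residual r above 0.1 in 5 of 18 pairs (mean 0.05), all 3 at ZT12 (0.29, 0.27 and 0.14) and 2 at ZT20 (0.13 and 0.16), so the numbers were not taken to pair the mice. The fit with the replicate block called 3 of the 8 in IH and 1 in control between windows, with Vhl in IH at -0.30 and an adjusted p of 0.00299. It changed no call on the 8 genes.

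Small log2 differences that missed the threshold changed sign, and the cause was not tested. Inside the window, Egln3 became -0.012 with median ratio scaling and -0.009 with array weights, and with ZT0 counted outside or left out Arnt became -0.029 and Egln1 0.011. Outside it, Egln2 became 0.015 with ZT12 left out. Over all time points Egln2 became 0.019 with ZT0 left out, 0.044 with ZT12 left out and 0.008 with array weights, and Vhl 0.035 with ZT0 left out. In the difference between the windows, Hif1an became 0.001 with quantile normalization, 0.009 with ZT0 counted outside or ZT12 left out and 0.014 with array weights, and Epas1 0.017 with array weights. Between windows in control, Arnt became 0.003 with a pseudocount of 0.1, Hif1a -0.006 with median ratio scaling, -0.027 with quantile normalization and -0.031 with ZT12 left out, and Epas1 -0.039 with median ratio scaling and -0.062 with array weights. Between windows in IH, Hif1a became 0.021 with ZT0 counted outside and Egln3 -0.029 with ZT12 left out. With each library left out, Egln3 inside ran from -0.05 to 0.069, and over all time points Egln2 ran from -0.017 to 0.008 and Vhl from -0.018 to 0.019. The difference between the windows ran from -0.139 to 0.034 for Epas1, -0.168 to 0.015 for Arnt and -0.068 to 0.043 for Hif1an. Inside minus outside ran in control from -0.027 to 0.107 for Hif1a, -0.057 to 0.094 for Epas1 and -0.118 to 0.065 for Arnt, and in IH from -0.1 to 0.023 for Epas1. With 3 mice per group, the 95% interval inside the window reached from -0.22 to 0.26 for Egln3, the widest, and from -0.03 to 0.15 for Egln2, the narrowest.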
